A study of Mus musculus with 21 samples.

Results

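Glycolysis, the storage and release of glycogen, and the handling of lactate are carried out in skeletal muscle by a small number of abundant enzymes and transporters. Expression was examined for 36 genes of these pathways, chosen by name for their role in the pathway. The choice was made with earlier results of these data known. All 36 were among the 40853 genes of the deposited table, and all 36 were among the 16129 genes that passed the filter on low counts. They comprised 3 genes of glucose entry and phosphorylation, 6 of upper glycolysis, 4 that set the level of fructose-2,6-bisphosphate, 7 of lower glycolysis, 4 of lactate formation and transport, 3 of fructose bisphosphatase and the glycerol phosphate shuttle, 5 of glycogen synthesis and 4 of glycogen breakdown. RNA was taken from the gastrocnemius (its medial belly) of female C57BL/6NJ mice, which were 10 weeks old at the start, with 7 mice per group and 1 library per mouse. Inactive mice did no training, Active mice ran on a treadmill for 6 weeks, and Activity Reduction mice ran for 4 weeks and were then kept inactive for 2 weeks. Sessions took place 5 times a week, opened with a slower warm up and went on at about 70% of each mouse's maximal speed, and their length was raised over the first weeks to 40 min in all. All 3 groups, the Inactive group included, performed graded maximal running tests, and tissue was taken after 48 to 72 h of recovery and a fast, so none of the groups was free of treadmill running and none was sampled during exercise.

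In a muscle fibre, glucose enters through transporters and is phosphorylated by hexokinase, or glucose phosphate is released from glycogen by phosphorylase. Glycolysis turns either into pyruvate, which is oxidised in mitochondria or reduced to lactate and carried out of the fibre by monocarboxylate transporters. The gastrocnemius of the mouse is made up largely of fast fibres, which are rich in glycolytic enzymes, whereas slow oxidative fibres use more of the heart form of lactate dehydrogenase.

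Between 38482455 and 59785132 reads were counted on genes per library, and each of the 36 genes had at least 170 counts in every library, the fewest being those of Pfkp. Values by mouse are given as normalized counts, which are raw counts divided by DESeq2's size factor of the library. Libraries stood apart from the rest in more than 1 way. In 8 of the 21 (Active replicates 1 to 5, Activity Reduction replicates 1 and 2 and Inactive replicate 1), 24 liver markers summed to at least 773 CPM (counts scaled to the library total), against at most 360 CPM in the other 13. These 8 were the first in the order of the mouse label numbers, without a gap. They held most of the Active mice and only 1 Inactive mouse, so the division by liver transcripts was not balanced over the groups. Of the Active mice, only replicates 6 and 7 had fewer liver transcripts. Below, every comparison with Active mice in only the libraries with fewer liver transcripts rests on this pair. Fewer mice and fewer liver transcripts cannot be told apart there. Another 4 libraries, Activity Reduction replicates 5, 6 and 7 and Inactive replicate 7, stood apart for Pfkfb3 and for 3 more of the 36 genes, whose values are given with Pfkfb3. These 4 lay at the end of the label order, with only Inactive replicate 6 among them. Whether the label order marks a batch was not tested. The tissue of origin was marked by skeletal muscle genes in every library, with 10 of 10 muscle markers passing the filter. In bulk tissue, fewer cells of a type and less RNA per cell cannot be told apart.

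Fructose-bisphosphate aldolase A (Aldoa) had the highest level of the 36 genes. Levels are compared between genes only as CPM per kilobase of the canonical transcript, on which scale the median of the 21 libraries was 10656 for Aldoa and 5380 for glyceraldehyde-3-phosphate dehydrogenase (Gapdh). The lowest library for Aldoa (9786) lay above the highest for Gapdh (5788). Muscle glycogen phosphorylase (Pygm, median 3606 on the same scale) and the muscle enolase Eno3 (3464) came next, and their ranges overlapped. Lactate dehydrogenase A (Ldha, 1982), the muscle phosphoglycerate mutase Pgam2 (1832) and pyruvate kinase (Pkm, 1814) also had overlapping ranges. Tpi1 (1255) and the muscle phosphofructokinase Pfkm (1139) followed. At the other end were the genes of forms that predominate in other tissues. These were the hexokinase Hk1 (1.80), the glucose transporter Slc2a1 (1.43) and the platelet phosphofructokinase Pfkp (1.05). The 36 genes together held between 6.14% and 6.68% of all counts in a library (median 6.44%), and Aldoa alone held between 1.48% and 1.71%.

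**Figure D1:**
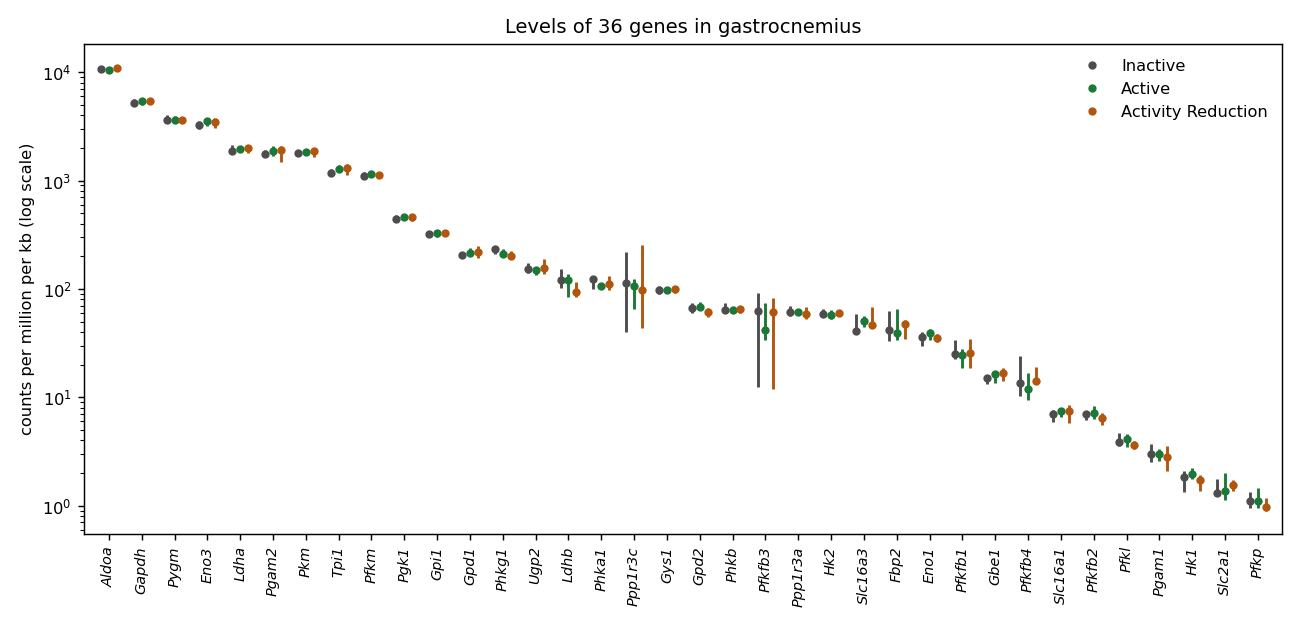
Level of each of the 36 genes in CPM per kilobase of transcript (log axis), ordered by the median of all libraries, where the dot is the median and the line runs from the lowest to the highest of the 7 mice of a group. Aldoa, at a median of 10656, sits apart from all others, Pfkp is the lowest at 1.05, and the lines of the 3 groups overlap for every gene.

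The strand setting used when reads were counted is not given in the sources used here, so counts are uncertain where exons of 2 genes lie opposite each other or where near-identical copies exist. The exons of Pgam2 lie entirely within the span of exons of Dbnl on the opposite strand. Overlap with exons of an opposite-strand gene covered 40.1% of the exons of Slc16a3 (Csnk1d), 53.1% of those of Gpd1 (Gm16537), 41.6% of those of Gapdh (Iffo1), 39.8% of those of Pfkl (Cfap410) and 29.8% of those of Phkg1 (Sumf2). The exons of Aldoa share 43.1% of their length with Gm57854 on the same strand. For Gapdh, 89 other annotated genes matched at least 100 bases of the transcript at 95% identity or more, and 6 of these are in the deposited table.

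The first question was whether any of the 36 genes differed with 6 weeks of training, with training followed by inactivity, or between the 2 trained groups. In the fit of all 21 libraries, 0 of the 36 were called in any of the 3 comparisons, where a call is an adjusted p-value under 0.05 and a log2 fold change beyond 0.25 (edgeR's quasi-likelihood test, two-sided, Benjamini-Hochberg over the 16129 genes). Among all genes tested, 0% were called between Active and Inactive mice, 0.0124% between Activity Reduction and Inactive mice, and 0% between Activity Reduction and Active mice. In the test of any difference among the 3 groups, 0 of the 36 and 0% of all genes had an adjusted p-value under 0.05. DESeq2 also called 0 of the 36 in each comparison, whether fitted on the 3 groups or on the 2 groups compared. The share of all genes called by DESeq2 is not given here, so this count cannot be set against it. The paper, also with DESeq2, reported differentially expressed transcripts in every comparison. The smallest adjusted p-values of the 36 were 0.354 (Phka1, Active against Inactive), 0.411 (Ldhb, Activity Reduction against Inactive) and 0.288 (Aldoa, Activity Reduction against Active) with edgeR. With DESeq2 the lowest was 0.0626, for Ldhb in the fit of the Activity Reduction and Inactive groups.

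Below, a gene is called under 0.05 where its unadjusted p-value in the same edgeR fit was, and the p-values printed with fold changes are the adjusted ones of that fit. By this measure 5 of the 36 genes differed between Active and Inactive mice (3 higher and 2 lower in Active mice), against 10.9% of all genes tested. Between Activity Reduction and Inactive mice 8 differed (6 higher, 2 lower), against 7.73% of all genes. Between Activity Reduction and Active mice 5 differed (3 higher, 2 lower), against 13.3%, and 5 differed in the test of any difference among the groups, against 12.6%. Those 5 were Ldhb, Gbe1, Slc16a3, Tpi1 and Phka1. For the second of these comparisons the share of the 36 genes was above that of all genes, and for Active against Inactive mice it was 5 of 36 against 1754 of 16129. The median log2 fold change of the 36 genes was 0.02, 0.05 and 0.03 in the same order of comparisons, with 21, 25 and 27 of the 36 higher in the first named group. Without 4 libraries that stood apart for Pfkfb3, 22, 23 and 18 of the 36 were higher, and the median between Activity Reduction and Active mice was 0.00. In the first 2 comparisons the median over all genes was 0.01.

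The changes that the data leave room for were small for most of these genes. The 95% interval of the log2 fold change lay wholly within 0.25 of zero for 22 genes between Active and Inactive mice, for 22 between Activity Reduction and Inactive mice and for 24 between Activity Reduction and Active mice. The median width of an interval was 0.24. The narrowest was 0.15, for glycogen synthase (Gys1), and the widest was 1.72, for Pfkfb3. The coefficient of variation between mice of a group had a median of 6.53% (Inactive), 6.64% (Active) and 8.46% (Activity Reduction) over the 36 genes, against 12.5%, 12.7% and 13.4% over all genes tested. In every comparison the groups overlapped for all 36 genes, and they were without overlap for 0.254%, 0.118% and 0.291% of all genes.

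**Figure D2:**
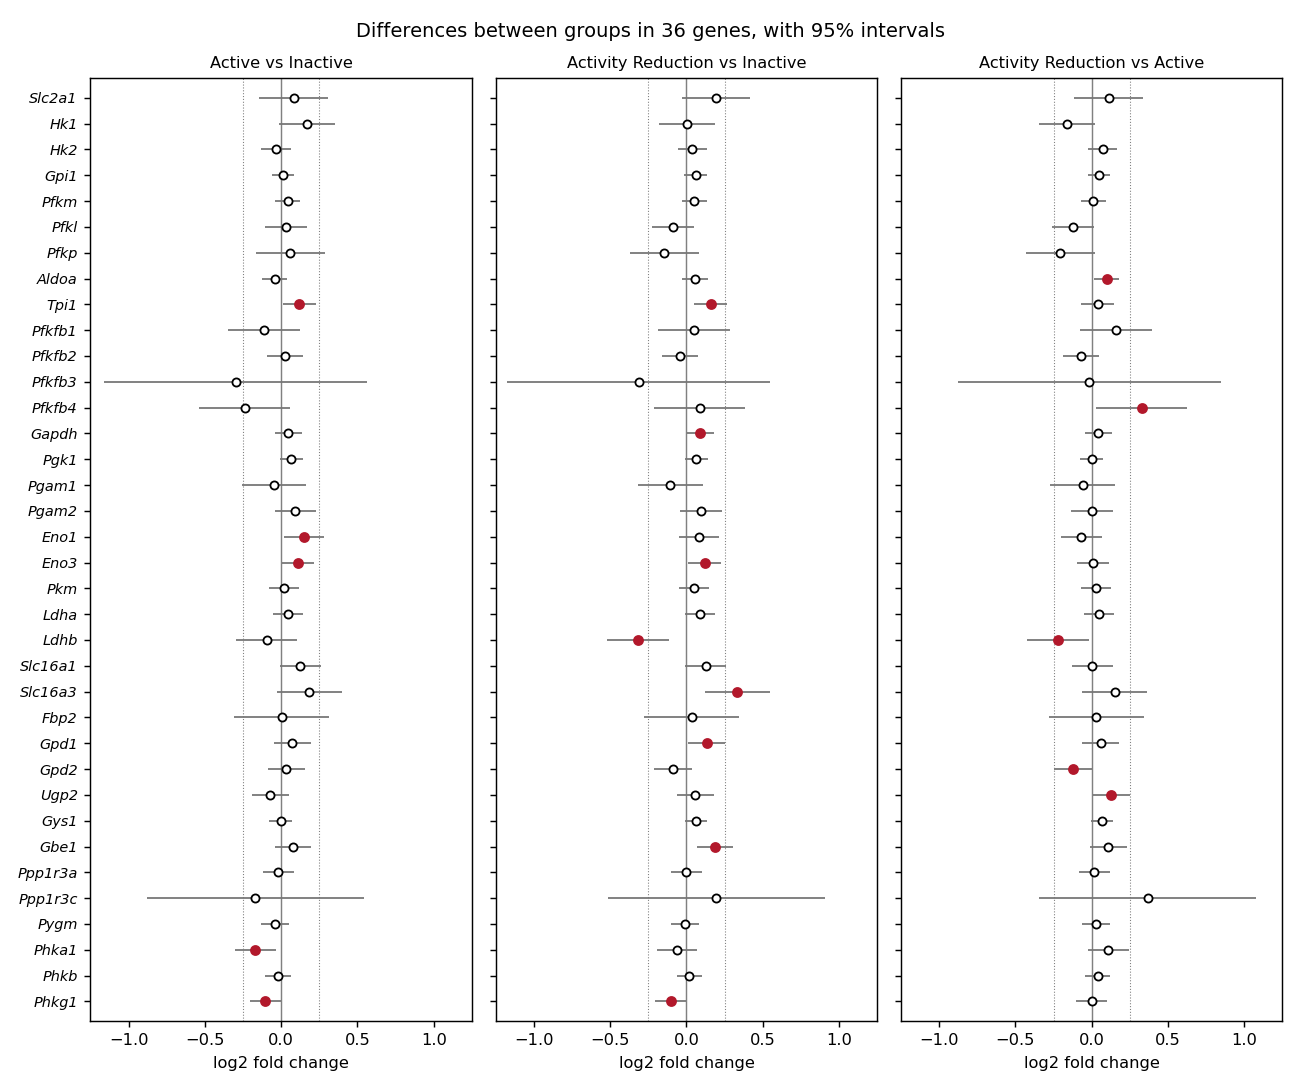
Log2 fold change (horizontal axis) of the 36 genes in 3 panels, 1 per comparison, with the 95% interval of edgeR's fit as a line, red filled points for an unadjusted p-value under 0.05 and dotted lines at 0.25 either side of zero. Most intervals lie inside the dotted lines, and the widest, 1.72 across, is that of Pfkfb3.

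The genes of glucose entry and phosphorylation showed 0 of 3 under 0.05 in each comparison. Hexokinase II (Hk2), the hexokinase of insulin-responsive muscle, had normalized counts of 21138 (lowest), 22690 (median) and 25227 (highest) in Inactive mice, of 19878, 22190 and 24112 in Active mice and of 22621, 23189 and 24631 in Activity Reduction mice. The 3 ranges overlapped, and the log2 fold change against Inactive mice was -0.03 in Active mice (adjusted p = 0.833) and 0.04 in Activity Reduction mice (adjusted p = 0.927, edgeR in both). Hk1, the form of brain and blood cells, had a log2 fold change of 0.17 in Active against Inactive mice (exact permutation p = 0.102). Slc2a1, which encodes the basal glucose transporter GLUT1, had one of 0.19 in Activity Reduction against Inactive mice (adjusted p = 0.724).

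In upper glycolysis, triosephosphate isomerase (Tpi1, chr6:124787549-124791273, GRCm39, minus strand) was under 0.05 in both comparisons with Inactive mice. It interconverts the pair of triose phosphates that aldolase makes. Normalized counts of Tpi1 were 88226, 91926 and 103093 (lowest, median, highest) in Inactive mice, 93146, 102441 and 109351 in Active mice and 91488, 103928 and 118410 in Activity Reduction mice. The Active median lay near the highest Inactive mouse and the Activity Reduction median above it, and all 3 groups overlapped. Active mice had a log2 fold change of 0.12 against Inactive mice (SE 0.05, 95% interval 0.01 to 0.23), with adjusted p = 0.419. In Activity Reduction mice it was 0.16 (SE 0.05, 0.05 to 0.27), with adjusted p = 0.450 (edgeR). The two-sided exact permutation test of the group means gave p = 0.0221 and p = 0.0256 for Tpi1 in these comparisons, before adjustment. Without the 4 libraries that stood apart for Pfkfb3, the log2 fold change of Tpi1 in Activity Reduction against Inactive mice was 0.10, and its unadjusted p was no longer under 0.05.

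Aldoa, which splits fructose bisphosphate, was under 0.05 only between the trained groups. Its normalized counts were 720662, 787184 and 826781 in Active mice and 776715, 814207 and 884278 in Activity Reduction mice, with the Inactive mice (762436, 797450 and 850320) between them by median. The 3 ranges overlapped. In Activity Reduction against Active mice Aldoa had a log2 fold change of 0.10 (SE 0.04, 95% interval 0.02 to 0.18, adjusted p = 0.288 from edgeR), and against Inactive mice one of 0.06 (adjusted p = 0.809). The exact permutation test between the trained groups gave p = 0.0233 before adjustment. Aldoa was under 0.05 in 4 of 9 alternative settings. Its log2 fold change was 0.05 in only the libraries with fewer liver transcripts, where Active replicates 6 and 7 alone remained of their group. The other 4 genes of upper glycolysis (Gpi1, Pfkm, Pfkl and Pfkp) were over 0.05 in every comparison. Pfkm, the phosphofructokinase of muscle and the main control point of the pathway, had log2 fold changes of 0.04, 0.05 and 0.01.

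The enzymes of the Pfkfb family make and break down fructose-2,6-bisphosphate, the strongest activator of phosphofructokinase. Among them Pfkfb3 varied more within groups than any other of the 36 genes by the width of its interval. Its normalized counts were 3478, 17717 and 25097 (lowest, median, highest) in Inactive mice, 9475, 11809 and 21188 in Active mice and 3321, 16765 and 23852 in Activity Reduction mice. The low values came from the 4 libraries already named, with 3321 to 5439 against 9475 to 25097 in the other 17. These libraries were picked out for Pfkfb3 after its values were seen, so what follows about them is a description without a test. For Pfkfb3 the log2 fold change was -0.30 in Active mice (adjusted p = 0.838) and -0.31 in Activity Reduction mice (adjusted p = 0.934), both against Inactive mice, and -0.02 between the trained groups. Without the 4 libraries the values for Pfkfb3 were -0.48 in Active and 0.10 in Activity Reduction mice against Inactive mice and 0.58 between the trained groups, so the latter pair turned direction.

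Of the 36 genes, 3 more separated the same 4 libraries from the other 17 without overlap, all with higher counts. The share of all genes that did so was not computed, so this number does not set the 36 genes apart from others. Ppp1r3c, a subunit that brings protein phosphatase 1 to glycogen and so favours its synthesis, had 28715 to 42879 normalized counts in the 4 libraries and 6765 to 24408 in the others. Pfkfb1, the liver and muscle form of the family, had 2680 to 3297 against 1699 to 2481. Slc16a3, the lactate exporter MCT4, had 13500 to 16091 against 8780 to 12868. Beyond the 36 genes, and also chosen after their values were seen, the glucocorticoid target Fkbp5 (4772 to 8924 against 735 to 3534) and the transcription factor gene Foxo1 (2217 to 3650 against 688 to 1490) were higher in the 4 libraries. The summed adipocyte markers ranged from 31764 to 43270 in the 4 and from 16412 to 31964 in the others. A sum is set mostly by its most abundant genes, and single adipocyte markers were not compared between these libraries. In Activity Reduction against Inactive mice, 1 of the 8 adipocyte markers was higher, with a median log2 fold change of -0.24. The part of any of these genes or markers in the differences between groups was not tested.

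**Figure D3:**
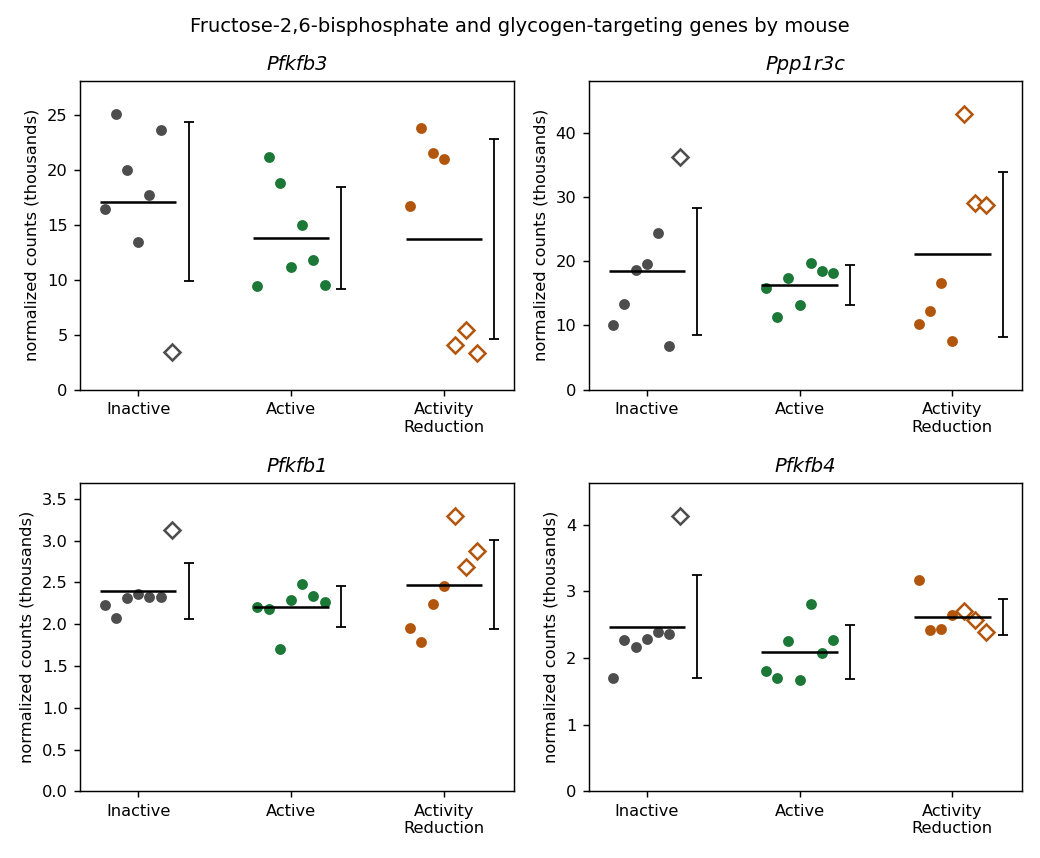
Normalized counts (vertical axes) of Pfkfb3, Ppp1r3c, Pfkfb1 and Pfkfb4 by mouse in the 3 groups, with open diamonds for Activity Reduction replicates 5, 6 and 7 and Inactive replicate 7, a bar for the mean and an error bar for the SD of the 7 mice. The diamonds lie at 3321 to 5439 for Pfkfb3, below all circles, and at 28715 to 42879 for Ppp1r3c, above all circles, whereas they overlap the circles for Pfkfb4.

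Because these genes set the same libraries apart, the 200 bases before the start of the canonical transcript are shown for Pfkfb3 (chr2:11507418-11507617, minus strand), Ppp1r3c (chr19:36714071-36714270, minus strand) and Slc16a3 (chr11:120839341-120839540, plus strand), all from GRCm39 and written 5′ to 3′ on the strand of the gene. Capitals mark a match on either strand to the letters ACGTG (the core of a hypoxia response element), CACGTG (an E-box, which contains ACGTG and is then counted for both), CAGCTG (an E-box of myogenic factors) or AGGTCA (a hexamer bound by nuclear receptors).
Pfkfb3: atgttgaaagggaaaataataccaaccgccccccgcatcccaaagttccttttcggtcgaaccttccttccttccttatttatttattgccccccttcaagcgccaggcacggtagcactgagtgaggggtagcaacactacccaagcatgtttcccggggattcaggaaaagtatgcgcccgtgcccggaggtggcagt
Ppp1r3c: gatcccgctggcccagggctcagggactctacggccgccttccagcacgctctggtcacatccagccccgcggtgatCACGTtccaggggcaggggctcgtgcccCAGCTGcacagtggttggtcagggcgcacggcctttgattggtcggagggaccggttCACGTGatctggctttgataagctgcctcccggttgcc
Slc16a3: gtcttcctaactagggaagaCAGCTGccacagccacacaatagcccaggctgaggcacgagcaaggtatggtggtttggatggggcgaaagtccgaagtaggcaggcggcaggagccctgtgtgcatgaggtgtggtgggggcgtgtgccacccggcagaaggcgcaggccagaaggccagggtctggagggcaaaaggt
Windows of this kind held ACGTG in 13.95% of 21751 protein-coding genes and in 11 of the 36, CACGTG in 5.43% and 5 of 36, CAGCTG in 9.76% and 8 of 36, and AGGTCA in 10.59% and 3 of 36. The window of Pfkfb3 held none of these letters, that of Ppp1r3c held 3 matches to ACGTG (2 of them, 1 on each strand, within the same CACGTG) and 1 to CAGCTG, and that of Slc16a3 held 1 to CAGCTG. A match is a description of letters and not a site.

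Pfkfb4 was the gene of this family under 0.05 in a comparison. Its normalized counts were 1703, 2284 and 4132 in Inactive mice, 1668, 2080 and 2808 in Active mice and 2391, 2567 and 3176 in Activity Reduction mice. The lowest Activity Reduction mouse lay above the median of both other groups, and the ranges overlapped. Pfkfb4 had a log2 fold change in Activity Reduction against Active mice of 0.33 (SE 0.14, 95% interval 0.03 to 0.63, adjusted p = 0.333 from edgeR), and 0.35 without the 4 libraries. Against Inactive mice it was 0.09 (adjusted p = 0.953), and 0.28 (adjusted p = 0.759) without them. The exact permutation test of Pfkfb4 between the trained groups gave p = 0.0157 before adjustment. Pfkfb4 had 0.22 between these groups in only the libraries with fewer liver transcripts, no longer under 0.05. Pfkfb1 and Pfkfb2 were over 0.05 in all 3 comparisons.

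In lower glycolysis both enolase genes were under 0.05 in Active against Inactive mice. Eno3, the muscle form, had 261221, 276088 and 306019 normalized counts in Inactive mice, 266456, 308706 and 325376 in Active mice and 270900, 314928 and 337160 in Activity Reduction mice. The medians of both trained groups were above the highest Inactive mouse, though the ranges overlapped. Against Inactive mice Eno3 had a log2 fold change of 0.11 (SE 0.05, adjusted p = 0.445) in Active and 0.12 (SE 0.05, adjusted p = 0.613) in Activity Reduction mice from edgeR. The exact permutation tests of Eno3 gave p = 0.0443 and p = 0.0507 before adjustment. In Activity Reduction mice the log2 fold change of Eno3 was 0.04 without the 4 libraries, no longer under 0.05. Eno1, the form found in most tissues, had 3311, 3962 and 4480 normalized counts in Inactive, 3857, 4367 and 4819 in Active and 3762, 4146 and 4509 in Activity Reduction mice. All 3 ranges overlapped. Its log2 fold change was 0.15 (SE 0.06, 95% interval 0.02 to 0.28, adjusted p = 0.416) in Active mice and 0.08 (adjusted p = 0.831) in Activity Reduction mice, and the exact permutation test for Active mice gave p = 0.0688. The value for Eno1 in Active mice was 0.09 in only the libraries with fewer liver transcripts and 0.14 with liver transcripts as a covariate, no longer under 0.05 in either. A near-identical gene, Eno1b, covers 75.7% of the Eno1 transcript at 99.5% identity and is counted separately in the table, so the counts of Eno1 are uncertain.

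Gapdh, which makes the NADH of glycolysis, had 337089, 361715 and 400767 normalized counts in Inactive mice and 372488, 379237 and 424636 in Activity Reduction mice. The lowest Activity Reduction mouse was above the Inactive median, and the ranges overlapped. Gapdh had a log2 fold change of 0.09 (SE 0.04, adjusted p = 0.644 from edgeR), and its unadjusted p was under 0.05 in only 4 of the 21 fits that each left out 1 library. The exact permutation test gave p = 0.0594. Gapdh had 0.06 without the 4 libraries, no longer under 0.05. Pgk1, Pgam1, Pgam2 and Pkm, which carry the pathway on to pyruvate, were over 0.05 in every comparison. Of the 7 genes of lower glycolysis, 6 were higher in each trained group than in Inactive mice. Their median log2 fold change was 0.06 in Active and 0.08 in Activity Reduction mice, and 0 of 7 had an adjusted p-value under 0.05. The share of all genes higher in these groups is not given here.

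Lactate dehydrogenase B (Ldhb, chr6:142435672-142454586, GRCm39, minus strand) had the smallest unadjusted p-value of the 36 genes in the test among the 3 groups (adjusted p = 0.269 from edgeR). Ldhb encodes the heart form of the enzyme, which favours the use of lactate. Its normalized counts were 7419, 9202 and 11382 in Inactive mice, 6277, 8887 and 10130 in Active mice and 6317, 7347 and 8771 in Activity Reduction mice. Every Activity Reduction mouse lay below the Inactive median, and the ranges overlapped. In Activity Reduction against Inactive mice the log2 fold change of Ldhb was -0.32 (SE 0.10, 95% interval -0.52 to -0.12), with adjusted p = 0.411. Against Active mice it was -0.22 (SE 0.10, -0.43 to -0.02), with adjusted p = 0.331, and between Active and Inactive mice -0.10 (adjusted p = 0.761). The two-sided exact permutation test gave p = 0.00816 against Inactive and p = 0.0693 against Active mice, before adjustment. In the 21 fits that each left out 1 library, the unadjusted p for Ldhb against Inactive mice was under 0.05 in 21, and against Active mice in 15.

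The difference in Ldhb was also computed without the libraries that stood apart. Without the 4 libraries of low Pfkfb3, the log2 fold change of Ldhb was -0.43 (adjusted p = 0.382) against Inactive and -0.33 (adjusted p = 0.231) against Active mice. With the division by liver transcripts as a covariate it was -0.28 (adjusted p = 0.305) and -0.34 (adjusted p = 0.156). In the 13 libraries with fewer liver transcripts, where 5 Activity Reduction and 6 Inactive mice remained, it was -0.30 (adjusted p = 0.300 from edgeR). In those 11 mice the groups did not overlap (exact permutation test, two-sided, p = 0.00216). That p is the smallest that 5 against 6 mice can give, so it restates the lack of overlap. The share of all genes without overlap in these mice was not computed.

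Markers of slow oxidative fibres were also lower in Activity Reduction mice. Of 8 such markers, 5 were lower at an unadjusted p under 0.05 in Activity Reduction against Inactive mice, with a median log2 fold change of -0.62, and 0 of 8 passed an adjusted p of 0.05 (edgeR). The slow myosin gene Myh7, for example, had a log2 fold change of -0.74 (adjusted p = 0.506). Between Active and Inactive mice 0 of 8 were under 0.05 (median -0.20), and between the trained groups 1 of 8 was lower (median -0.42). The summed normalized counts of the 8 markers were 91821, 108468 and 117876 in Inactive mice, 46426, 100467 and 113154 in Active mice and 31164, 75464 and 99624 in Activity Reduction mice. Of 8 fast fibre markers, 1 was higher at p under 0.05 in each comparison.

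Over the 21 mice, Ldhb and the summed slow markers, both as log2 normalized counts, had Pearson's r = 0.81 (permutation p = 1e-05, the smallest that 100000 resamples can give, adjusted p = 4e-05 over 4 relations) and Spearman's rho = 0.65 (permutation p = 0.00158, adjusted p = 0.00632). The r was 0.75 without the 2 mice farthest from the median of the slow markers, 0.81 in the 13 libraries with fewer and 0.77 in the 8 with more liver transcripts, and 0.71 for deviations from the group means. The permutations ignored group, so their p-values take in differences between groups as well as between mice. No p-value was computed for the deviations. The same relation was computed for Gbe1 (r = -0.09), Slc16a3 (r = -0.10) and Tpi1 (r = -0.40), and the smallest permutation p of these was 0.0743. Ldhb and these genes were taken for having the smallest p-values in Activity Reduction against Inactive mice. In that comparison the slow markers were also lower. The part of slow fibres in the group difference of Ldhb was not tested.

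**Figure D4:**
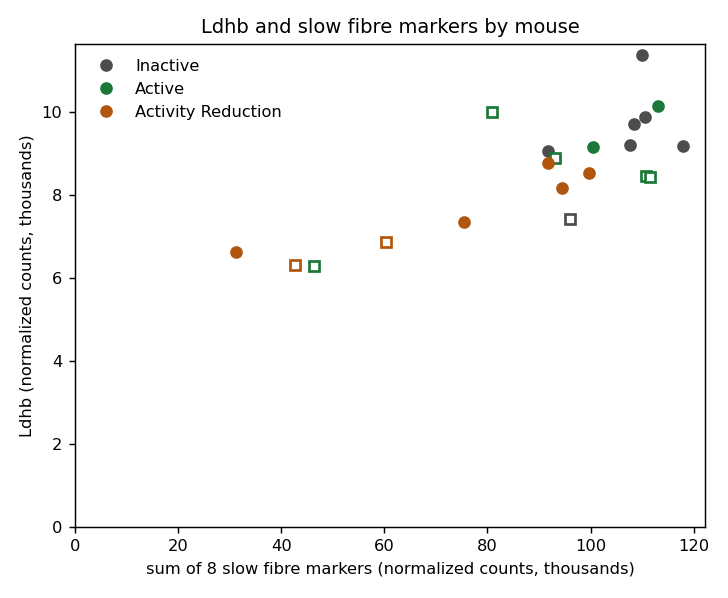
Normalized counts of Ldhb (vertical axis) against the summed normalized counts of 8 slow oxidative fibre markers (horizontal axis), 1 point per mouse and coloured by group, with filled circles for the 13 libraries with fewer and open squares for the 8 with more liver transcripts. Both axes are linear, and mice with lower slow marker sums have lower Ldhb (r = 0.81 on log2 values), within both kinds of library.

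Ldha, the muscle form that favours lactate formation, had 142889, 146293 and 169527 normalized counts in Inactive mice, 145819, 154620 and 168631 in Active mice and 143424, 158666 and 173553 in Activity Reduction mice. The groups overlapped over almost their whole range. Its log2 fold change against Inactive mice was 0.04 (adjusted p = 0.772) in Active and 0.09 (adjusted p = 0.694) in Activity Reduction mice. The window before the transcript start of Ldha (chr7:46495063-46495262, GRCm39, plus strand) is shown, marked as above, because Ldha varied most closely with Tpi1 across mice.
Ldha: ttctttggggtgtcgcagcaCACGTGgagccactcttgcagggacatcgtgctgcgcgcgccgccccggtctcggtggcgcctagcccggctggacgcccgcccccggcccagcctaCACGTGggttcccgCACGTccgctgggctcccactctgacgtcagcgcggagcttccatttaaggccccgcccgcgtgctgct
The Ldha window held 5 matches to ACGTG, counted on both strands, in 3 places, of which 2 were CACGTG.

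Slc16a3 (chr11:120838846-120851694, GRCm39, plus strand) had the largest positive log2 fold change of the 36 genes in Activity Reduction against Inactive mice. MCT4, its product, exports lactate from fast fibres. Its normalized counts were 8780, 9399 and 13500 in Inactive mice, 10474, 11264 and 12868 in Active mice and 10292, 11391 and 16091 in Activity Reduction mice. The 4 highest values were those of the 4 libraries described above, and the ranges overlapped. Activity Reduction mice had a log2 fold change of Slc16a3 against Inactive mice of 0.33 (SE 0.10, 95% interval 0.12 to 0.55) with adjusted p = 0.414 (edgeR), and the exact permutation test gave p = 0.0396 before adjustment. In Active against Inactive mice it was 0.18 (adjusted p = 0.528).

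Leaving out the 4 libraries moved Slc16a3 in opposite directions in the comparisons with Inactive mice. In Activity Reduction mice its log2 fold change became 0.18 (adjusted p = 0.574), and in Active mice 0.26 (adjusted p = 0.104). Between the trained groups it was 0.15 with all libraries (adjusted p = 0.549) and -0.08 without the 4 (adjusted p = 0.628). With liver transcripts as a covariate it was 0.34 (adjusted p = 0.305) in Activity Reduction against Inactive mice. Slc16a1, which encodes MCT1, a transporter of lactate uptake in oxidative fibres, had log2 fold changes of 0.12 (adjusted p = 0.492) in Active and 0.13 (adjusted p = 0.678) in Activity Reduction mice.

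**Figure D5:**
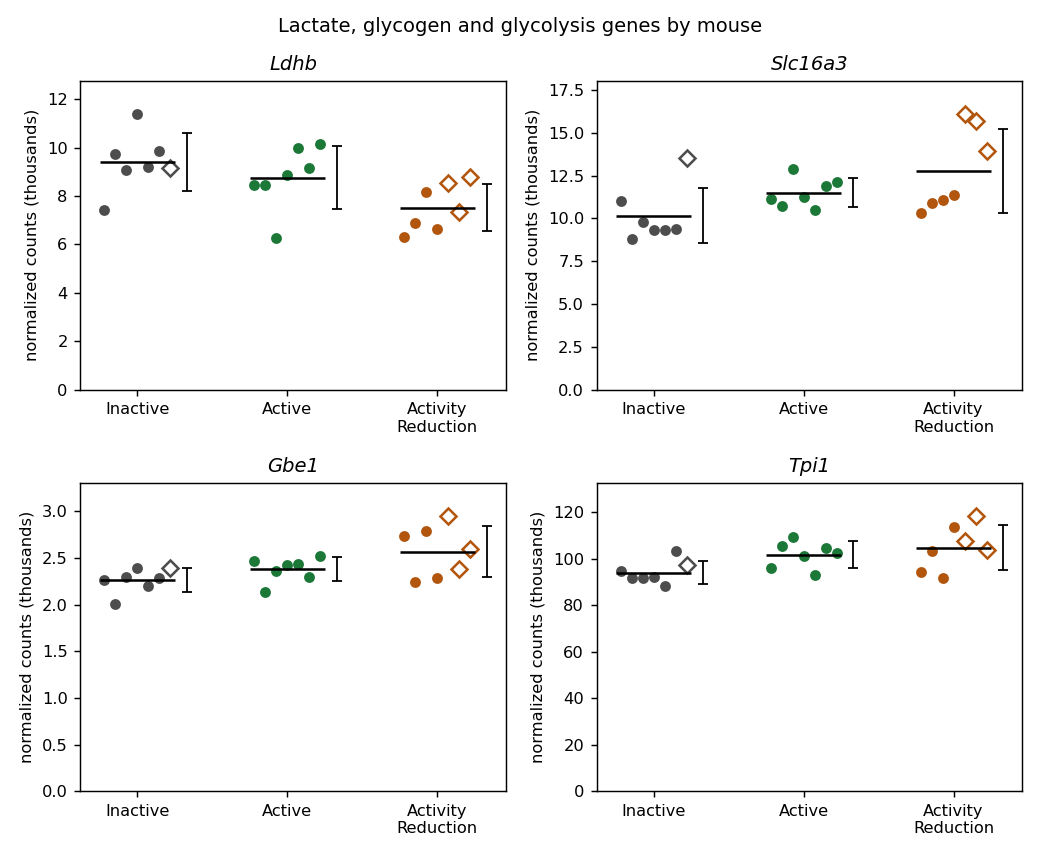
Normalized counts (vertical axes) of Ldhb, Slc16a3, Gbe1 and Tpi1 by mouse in the 3 groups, with open diamonds for Activity Reduction replicates 5, 6 and 7 and Inactive replicate 7, a bar for the mean and an error bar for the SD of the 7 mice. Ldhb is lowest by mean in Activity Reduction mice, the other 3 genes are highest there, and the groups overlap in every panel.

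The glycerol phosphate shuttle carries electrons of cytosolic NADH to mitochondria and is an alternative to lactate formation. Its cytosolic enzyme Gpd1 had 27802, 29056 and 31341 normalized counts in Inactive mice and 27167, 31448 and 36374 in Activity Reduction mice. The median of the latter lay above the whole Inactive range, with overlap at the lower end. Gpd1 had a log2 fold change of 0.13 (SE 0.06, 95% interval 0.01 to 0.26, adjusted p = 0.624 from edgeR), and an exact permutation p of 0.0833. That of Gpd1 was 0.11 without the 4 libraries, no longer under 0.05. The mitochondrial enzyme Gpd2 had 17477, 19147 and 21974 normalized counts in Active and 15755, 17738 and 19034 in Activity Reduction mice. Every Activity Reduction mouse was below the Active median. For Gpd2 the log2 fold change between these groups was -0.12 (SE 0.06, adjusted p = 0.369), with an exact permutation p of 0.0734. It was -0.06 for Gpd2 in only the libraries with fewer liver transcripts, no longer under 0.05. Fbp2, the muscle fructose bisphosphatase, varied widely between mice of a group and had log2 fold changes of 0.00, 0.03 and 0.03.

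Glycogen branching enzyme (Gbe1, chr16:70110715-70366609, GRCm39, plus strand) was the gene of glycogen synthesis under 0.05 in Activity Reduction against Inactive mice. Its normalized counts were 2009, 2287 and 2391 in Inactive mice, 2135, 2422 and 2522 in Active mice and 2238, 2599 and 2949 in Activity Reduction mice. The Activity Reduction median lay above the highest Inactive mouse, and the ranges overlapped. Gbe1 had a log2 fold change of 0.19 (SE 0.06, 95% interval 0.07 to 0.31), with adjusted p = 0.414 from edgeR, and the exact permutation test gave p = 0.0268 before adjustment. Without the 4 libraries it was 0.16 (adjusted p = 0.704), and 0.19 with liver transcripts as a covariate (adjusted p = 0.334). In Active against Inactive mice it was 0.08 (adjusted p = 0.653).

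Ugp2 makes UDP-glucose, the donor for glycogen synthase. It had 24425, 27433 and 28471 normalized counts in Active and 26546, 29550 and 34524 in Activity Reduction mice, with the Activity Reduction median above the highest Active mouse. Between these groups Ugp2 had a log2 fold change of 0.13 (SE 0.06, 95% interval 0.01 to 0.25, adjusted p = 0.337 from edgeR) and an exact permutation p of 0.0256. With only the libraries with fewer liver transcripts Ugp2 had 0.09, no longer under 0.05. Glycogen synthase (Gys1) had 16552, 17775 and 19314 normalized counts in Inactive, 16590, 17821 and 17955 in Active and 17369, 18673 and 19422 in Activity Reduction mice. The exact permutation test of Gys1 between the trained groups gave p = 0.0274 before adjustment, and the log2 fold change of edgeR was 0.07. Ppp1r3a, the main muscle glycogen-targeting subunit, had log2 fold changes of -0.02, 0.00 and 0.02, and Ppp1r3c, which separated the 4 libraries, had -0.17, 0.20 and 0.37, all over 0.05. Without those 4 libraries Ppp1r3c had 0.08, -0.40 and -0.49, each of the opposite sign. All 5 genes of glycogen synthesis were higher in Activity Reduction than in Active mice, with a median log2 fold change of 0.11. Of the 5, 1 was under 0.05, against 13.3% of all genes tested. When the 4 libraries were left out, Ppp1r3c and Ppp1r3a (-0.02) were lower in Activity Reduction mice. The share of all genes higher in that group is not given here.

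Glycogen breakdown is started by phosphorylase, which phosphorylase kinase activates. Phka1, the muscle alpha subunit of the kinase, had 42651, 53967 and 56021 normalized counts in Inactive mice, 42211, 46556 and 49121 in Active mice and 44103, 47097 and 58756 in Activity Reduction mice. Every Active mouse lay below the Inactive median, and the ranges overlapped. Phka1 had a log2 fold change in Active against Inactive mice of -0.17 (SE 0.06, 95% interval -0.30 to -0.04), with adjusted p = 0.354 from edgeR. The exact permutation test gave p = 0.0163 before adjustment, and edgeR's unadjusted p was under 0.05 in all 21 fits that left out 1 library. With liver transcripts as a covariate the log2 fold change of Phka1 was -0.15, no longer under 0.05, and in only the libraries with fewer of them it was -0.28.

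Phkg1, the catalytic subunit, had 24510, 27978 and 29546 normalized counts in Inactive, 24378, 25191 and 29079 in Active and 23941, 24952 and 28353 in Activity Reduction mice. The medians of the trained groups were lower, with nearly the same range in all 3. Its log2 fold change was -0.10 in both trained groups against Inactive mice (SE 0.05 in each), with adjusted p = 0.445 in Active and adjusted p = 0.644 in Activity Reduction mice. The exact permutation tests gave p = 0.0577 and p = 0.0583. Leaving out the 4 libraries, the log2 fold change of Phkg1 was -0.09 in Active and -0.05 in Activity Reduction mice, neither under 0.05. In only the libraries with fewer liver transcripts it was -0.17 in Active mice for Phkg1, and with them as a covariate -0.09 and -0.10, the latter pair over 0.05. Pygm, the phosphorylase itself, had log2 fold changes of -0.04, -0.01 and 0.03, and the beta subunit Phkb had -0.02, 0.02 and 0.04, all over 0.05. Of the 4 genes of breakdown, 4 had lower values in Active than in Inactive mice, of which 2 were under 0.05. Of all genes tested, 10.9% were under 0.05 in this comparison, in either direction. The share of all genes lower in Active mice is not given here.

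Where 2 or more genes encode forms of 1 enzyme, the share of the form was compared between groups within each library, on counts per kilobase. Ldhb made up 6.09% ± 0.86 (SD, 7 mice) of lactate dehydrogenase transcripts in Inactive mice, 5.57% ± 0.96 in Active mice and 4.68% ± 0.76 in Activity Reduction mice. The difference between the Activity Reduction and Inactive groups was -1.42 percentage points (exact permutation test, two-sided, p = 0.00816, adjusted p = 0.0997 over the 18 shares and comparisons tested). The ranges, 3.81% to 5.59% and 4.77% to 7.60%, overlapped. In the 13 libraries with fewer liver transcripts the same exact test gave p = 0.00216 and an adjusted p of 0.0130, there adjusted over only the 6 shares of this comparison. That p is again the smallest that this number of mice can give.

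The other shares were held almost entirely by the muscle form. Hk2 made up 97.1% of hexokinase transcripts in Inactive, 96.7% in Active and 97.2% in Activity Reduction mice, and the exact test between the trained groups gave p = 0.0204 (adjusted p = 0.122). Pfkm made up 99.5%, 99.5% and 99.6% of phosphofructokinase transcripts, with an exact permutation p of 0.0385 between Activity Reduction and Inactive mice and of 0.0111 between the trained groups (adjusted p = 0.173 and 0.0997). Pgam2 made up 99.8% and Eno3 98.9% to 99.0% in all groups. The share of Slc16a1 in the transcripts of the pair of lactate transporters was 13.6%, 13.0% and 12.1%, with exact p-values between 0.200 and 0.431. None of the 18 adjusted p-values was under 0.05 with all libraries.

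Across mice of the same group, several of these genes varied together. The Spearman correlation of deviations from group means was computed over the 21 libraries for all 630 pairs, as a description without a test, since libraries share depth and composition. The median was 0.06, with 17 pairs over 0.7 and 6 under -0.7. The highest was that of Tpi1 with Ldha (0.84, and 0.91 without the 4 libraries of low Pfkfb3). Tpi1 with Eno3 (0.83), Tpi1 with Gpd1 (0.81), Pgam2 with Eno3 (0.80), Pfkfb1 with Gys1 (0.80) and Pgam2 with Ldha (0.79) followed.

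The lowest correlations were those of Pfkfb3, and they were weaker without the 4 libraries. Pfkfb3 with Slc16a3 had -0.82, and -0.13 without the 4. With Pfkfb1 it had -0.80 and -0.31, with Gys1 -0.78 and -0.50, and with Ppp1r3c -0.72 and -0.22. Fbp2 with Phka1 was different, at -0.77 with all libraries and -0.79 without the 4, and so was Pfkfb1 with Gys1, at 0.80 and 0.77.

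The windows of Tpi1 (chr6:124791260-124791459, minus strand) and Eno3 (chr11:70547542-70547741, plus strand) are shown for comparison with that of Ldha above, since the 3 genes varied together.
Tpi1: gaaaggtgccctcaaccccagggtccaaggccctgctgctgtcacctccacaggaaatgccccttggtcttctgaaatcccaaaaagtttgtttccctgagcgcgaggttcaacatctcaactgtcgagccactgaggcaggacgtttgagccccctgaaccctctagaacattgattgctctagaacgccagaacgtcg
Eno3: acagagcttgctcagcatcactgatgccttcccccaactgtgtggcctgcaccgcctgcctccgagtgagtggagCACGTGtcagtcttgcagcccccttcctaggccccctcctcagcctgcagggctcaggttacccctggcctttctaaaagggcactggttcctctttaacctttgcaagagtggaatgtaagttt
The window of Eno3 held CACGTG once, which is also a match to ACGTG on each strand, and that of Tpi1 held none of the 4 motifs, so no motif was found in all 3.

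Beyond the 36 genes, 78 others of the same pathways were listed, of which 76 were in the table and 72 passed the filter. With edgeR, 0 of the 72 had an adjusted p-value under 0.05 in any comparison. At an unadjusted p under 0.05, 5 were higher and 3 lower in Active against Inactive mice, 4 higher and 4 lower in Activity Reduction against Inactive mice, and 3 higher and 5 lower in Activity Reduction against Active mice. Of all genes tested, 10.9%, 7.73% and 13.3% were under 0.05 in the same order. The median log2 fold changes of the 72 genes were 0.01, 0.02 and 0.01.

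Among regulators, Esrrg, a nuclear receptor of oxidative muscle, had a log2 fold change of -0.45 (adjusted p = 0.134) in Activity Reduction against Inactive mice. Against Active mice it was -0.27 (adjusted p = 0.219). Mlxip, a glucose-sensing transcription factor, had -0.17 (adjusted p = 0.225) in Active and -0.14 (adjusted p = 0.445) in Activity Reduction mice. Mlxipl, a related factor, had 0.17 (adjusted p = 0.452) in Active against Inactive mice.

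Around glycogen, Gaa, the lysosomal glucosidase that degrades glycogen, had a log2 fold change of -0.19 (adjusted p = 0.246) in Active against Inactive and 0.16 (adjusted p = 0.228) in Activity Reduction against Active mice. Gsk3a, a kinase that inhibits glycogen synthase, had -0.10 (adjusted p = 0.386) and 0.15 (adjusted p = 0.137) in the same comparisons, which share the Active mice. Pygb, the brain phosphorylase, had 0.25 (adjusted p = 0.407) and -0.39 (adjusted p = 0.129). Pgm2 had 0.43 (adjusted p = 0.333) in Active and 0.40 (adjusted p = 0.536) in Activity Reduction against Inactive mice. The liver phosphorylase Pygl (0.90, adjusted p = 0.439, Active against Inactive) stands beside a median log2 fold change of 1.22 for the 24 liver markers in the same comparison. Their part in this value was not tested.

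Around lactate and glucose transport, Bsg, the chaperone that brings MCT1 and MCT4 to the membrane, had 23465, 28157 and 29548 normalized counts in Inactive mice, 22995, 26994 and 28532 in Active mice and 27625, 29824 and 32701 in Activity Reduction mice. Its log2 fold change in Activity Reduction mice was 0.15 (adjusted p = 0.497) against Inactive and 0.16 (adjusted p = 0.204) against Active mice. Emb, the chaperone of MCT2, had -0.55 (adjusted p = 0.551) and -0.52 (adjusted p = 0.320), and Slc16a7, which encodes MCT2, had -0.95 (adjusted p = 0.200) against Active mice. The median of the 24 liver markers in that comparison was -0.93, and their part in the value of Slc16a7 was not tested. Slc2a4, the insulin-responsive glucose transporter GLUT4, had 0.11 (adjusted p = 0.644) against Inactive mice, and Ldhd, the D-lactate dehydrogenase, had -0.13 (adjusted p = 0.506). Pdk3, a kinase that inhibits pyruvate dehydrogenase, had -0.32 (adjusted p = 0.353) against Active mice.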

How the data were processed

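Poly(A) RNA of 21 gastrocnemius samples was sequenced. The authors used fastp for trimming, STAR for alignment to GRCm39 and featureCounts for counting reads on genes, per the paper's methods and the submitters' processing notes. The deposited values are raw counts of reads per gene. The other deposited table is titled as normalized but is identical to this one and was not used. The versions and the strand setting are not given in the sources used here. Total counts ran from 38482455 to 59785132 per library, so counting error is small for the 36 genes and the spread between mice sets the precision.

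Counts were tested in 1 edgeR model (edgeR 4.0.16 in R 4.3.3) of the 21 libraries with TMM scaling, the default filter on low counts and the quasi-likelihood test, two-sided, with Benjamini-Hochberg adjustment over all 16129 genes tested. A call needed an adjusted p-value under 0.05 and a log2 fold change over 0.25 in either direction. Exact permutation tests were run for each of the 36 genes in each comparison and are not adjusted over genes. Normalized counts, isozyme shares on counts per kilobase of the canonical GENCODE transcript, and exact permutation tests were computed in Python 3.11.15 with numpy 2.4.6 and pandas 2.3.3. Near-identical copies were found with BLAST 2.17.0. The model was also run on simulated data with known changes, which were larger than most of the differences described for the 36 genes.

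Groups and replicate numbers came from the GEO labels, and nothing shows litter, cage or day. Both sets of libraries that stood apart followed the order of the mouse labels closely, and what that order stands for is not given. The 36 genes, the wider gene lists and the markers were chosen with earlier results of these data known, and so were the tests. Full values were given for genes with an unadjusted p-value under 0.05 in a comparison, levels for the main enzymes and for the forms whose shares were compared, and up to 8 genes of the wider lists per comparison. Of these, 1 gene of the wider lists and 1 promoter window are not reported here. Alternatives were DESeq2 1.42.0 on 3 or 2 groups, other scaling, other filters, the liver division as a covariate or with only the libraries with fewer liver transcripts, a replicate block, each library left out in turn, and, chosen after the data were seen, 4 libraries left out and exon-union lengths.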

Additional observations from a re-analysis of the deposited data

Results flagged for a closer look

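For each of the 36 genes and each group of 7 mice, the highest and the lowest mouse were compared with the nearest of the others, relative to the whole range of the group. In 9 of the 126 groups tested, 1 mouse stood apart by Dixon's criterion at 95%, which chance alone gives in about 1 of 20 groups. All 9 were found for genes and none for an isozyme share.

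Inactive replicate 7, one of the 4 libraries with low Pfkfb3, was the highest of its group for Pfkfb1, with 3129 normalized counts against 2367 in the next mouse, and for Pfkfb4, with 4132 against 2391. For Pfkfb4 the highest Activity Reduction mouse, replicate 1, also stood apart, with 3176 against 2698.

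The other 6 were in the Active group. Replicate 2 was the highest for Pgk1 (45248 normalized counts against 41708 in the next mouse), for Pygm (583217 against 525209) and for Phkg1 (29079 against 25603). Replicate 3 was the lowest for Pfkfb1 (1699 against 2181) and for Gys1 (16590.0 against 17665). Replicate 1 was the lowest for Gpi1 (42300 against 45651.0).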

How the results depend on the processing

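In each alternative run, 0 of the 36 genes were called in any comparison, and the fold changes of the 18 gene-by-comparison results with an unadjusted p under 0.05 kept their sign. Of these 18, 4 were under 0.05 in all 9 alternatives that kept or replaced whole settings, namely Ldhb in Activity Reduction mice against both other groups and Gbe1 and Slc16a3 against Inactive mice. Among genes outside these 18, Pfkfb3 in both Activity Reduction comparisons and Ppp1r3c in all 3 turned direction without the 4 libraries of low Pfkfb3. The number of the 36 genes under 0.05 was less stable. Leaving out 1 library at a time, it ran from 1 to 8 in Active against Inactive mice (5 with all), being 1 without Active replicate 3 or Inactive replicate 4 or 5, 2 without Active replicate 6 or 7 or Inactive replicate 2, 3 without Active replicate 2 or 4 and 8 without Inactive replicate 1. In Activity Reduction against Inactive mice it ran from 4 to 10 (8 with all), being 4 without Activity Reduction replicate 6 and 5 without Inactive replicate 2, 3 or 5 or Activity Reduction replicate 4 or 7. In Activity Reduction against Active mice it ran from 1 to 6 (5 with all), being 1 without Activity Reduction replicate 1, 2 without Active replicate 1 and 3 without Active replicate 2, 4 or 5 or Activity Reduction replicate 4. With the liver division as a covariate, or with only the libraries with fewer liver transcripts, the latter number was 1. In the second of these settings Active replicates 6 and 7 alone remained of their group. Without the 4 libraries of low Pfkfb3, 5 genes were under 0.05 in Activity Reduction against Inactive mice. By exact tests of single genes in that comparison, 9 genes were under 0.05 in the libraries with fewer liver transcripts (4 with all). Of the 6 isozyme shares, 1 was under 0.05 between Active and Inactive mice without the 4 libraries (0 with all), and 1 between Activity Reduction and Inactive mice both without the 4 and with only the libraries with fewer liver transcripts (2 with all). The cause was not tested. Replicate numbers were not taken to pair the mice. Of 21 same-numbered pairs, 7 had a correlation over 0.1 (range -0.23 to 0.44). Pairs of unlike number were not compared, so these values do not show whether the numbers pair the mice. With a replicate block, 0 genes were called, and 6, 10 and 5 were under 0.05 in the order Active against Inactive, Activity Reduction against Inactive and Activity Reduction against Active. All these counts stand without the share of all genes under 0.05 in the same fit or test. In the fit of all libraries that share was 10.9%, 7.73% and 13.3% in the same order. The counts alone do not show whether the 36 genes moved apart from other genes.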
